A study of Drosophila melanogaster with 12 samples.

Results

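Juvenile hormone is a sesquiterpenoid made by the corpora allata, the endocrine gland of the insect head, and it reaches its targets through the hemolymph. Target cells remove it in part by hydrolysis: juvenile hormone esterase cleaves the methyl ester of the hormone and juvenile hormone epoxide hydrolases open its epoxide ring. The hormone is sensed by the paralogous bHLH-PAS receptors Met and gce, which switch on Kr-h1, a zinc-finger transcription factor that is widely used as a readout of the hormone. In the accessory gland, the organ of the male fly that secretes most of the seminal fluid proteins, juvenile hormone is known to stimulate protein synthesis. The genes described here are the 8 members of this breakdown and response machinery, chosen by symbol and not by their values: Jhe and its tandem duplicate Jhedup, Jheh1, Jheh2 and Jheh3, Met, gce and Kr-h1. All 8 of 8 were found among the 14323 genes of the expression table, and 7 of them were expressed highly enough to be tested.

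Expression was measured by RNA sequencing of accessory glands of virgin males at day 10, in 12 libraries of 80 to 100 glands each, with 3 libraries for each of 4 genotypes. Every genotype, the control included, carried the heat-shock flippase hs-flp12 in a y,w background, the flip-out driver Act>CD2>Gal4 with nuclear GFP, and UAS-P35, a baculoviral protein that blocks apoptosis. The Control added nothing to these. Yki*+Dp added UAS-Dp and an activated Yorkie with changes at 3 phosphorylation sites, together with a UAS-E2F1 that the labels list, YkiWT added wild-type UAS-yki, and Myc+E2f/Dp added UAS-dMyc, UAS-E2F1 and UAS-Dp. Yorkie is the transcriptional effector of the Hippo pathway, Myc is a growth regulator, and E2f1 with Dp drives entry into S phase. The transgenes were switched on in young adults by a heat shock of 20 min at 37 °C, after which the males were aged at 25 °C. The flip-out is mosaic, so each library mixes expressing and other cells, and the actin promoter drives Gal4 in other tissues of the animal as well. Glands with little or no GFP were left out by the study, and the most affected animals with E2f/Dp or Dp could have died before dissection. The labels do not say that the 3 libraries of a genotype came from separate crosses, so p-values measure the spread between these libraries, which may in part be technical.

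Values are given in TPM, a measure of transcript abundance per length that adds to a fixed total in each library. The overexpressed genes matched the labels apart from E2f1 in Yki*+Dp and yki in Myc+E2f/Dp. Dp was at 1866 to 2548 TPM in Yki*+Dp and 618 to 1449 TPM in Myc+E2f/Dp against 19.0 to 24.5 TPM in the Control, and Myc was at 114 to 232 TPM in Myc+E2f/Dp against 15.2 to 21.7 TPM. The transcript of E2f1 was not raised in Yki*+Dp (log2 fold change of -0.23, adjusted p = 0.226 by limma), although its label lists the transgene, and the study dropped E2f from the name of this line because its induction had been lost. The transcript of yki was raised in Myc+E2f/Dp, which has no yki transgene in its label, at 122, 176 and 55.9 TPM against 14.2, 16.5 and 14.7 TPM in the Control, and the log2 fold change was 1.94 (adjusted p = 0.00141). Its level there overlapped that of YkiWT (77.7, 70.5 and 163 TPM) and lay below that of Yki*+Dp (348, 431 and 394 TPM). The study also reported raised yki in Myc+E2f/Dp glands and proposed that Yki could take part in their epithelial remodeling. Comparisons with Myc+E2f/Dp are therefore those of the libraries labelled Myc+E2f/Dp. TPM values hold no depth, so counting errors could not be given. The 9 main cell markers of the accessory gland, all above 1 TPM, summed to between 58070 and 72800 TPM in the 12 libraries, while 8 to 9 of the 12 fat body markers were below 1 TPM in all 3 libraries of each genotype. Markers of the ejaculatory duct and bulb summed to between 158 and 1114 TPM, and those of the testis to between 5.09 and 70.4 TPM.

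One property of the libraries bears on every value below. In the TPM as deposited, the median log2 fold change of all 8128 tested genes was 0.74 in Myc+E2f/Dp, 0.30 in Yki*+Dp and 0.05 in YkiWT against the Control. The tests therefore used TPM multiplied by a factor per library that sets the middle of the genes level, which lay between 0.645 and 0.776 in Myc+E2f/Dp and between 1.13 and 1.36 in the Control. After this scaling the medians were 0.05, -0.00 and 0.01. A gene was called where the adjusted p of limma was under 0.05 and the log2 fold change at least 1 in size, and it passed the test where the adjusted p alone was under 0.05. Fold changes are on the scale of log2(scaled TPM + 1), which understates the changes of low genes. In glands, fewer cells that express a gene and less RNA of it per cell cannot be told apart.

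Jhe, the esterase, was the member that differed most between genotypes, rising with Yki*+Dp and falling with Myc+E2f/Dp. It stood at 1.36, 0.960 and 0.994 TPM in the Control, at 17.7, 15.9 and 16.3 TPM in Yki*+Dp, at 1.25, 3.03 and 2.86 TPM in YkiWT, and at 0.489, 0.433 and 0.466 TPM in Myc+E2f/Dp. The 3 Yki*+Dp libraries lay far above all others and the 3 Myc+E2f/Dp libraries below all others, while YkiWT overlapped the Control through its replicate 1. The share of all genes with such gaps was not computed. The plot of TPM by library shows these 4 levels beside those of the other members.

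**Figure D1:**
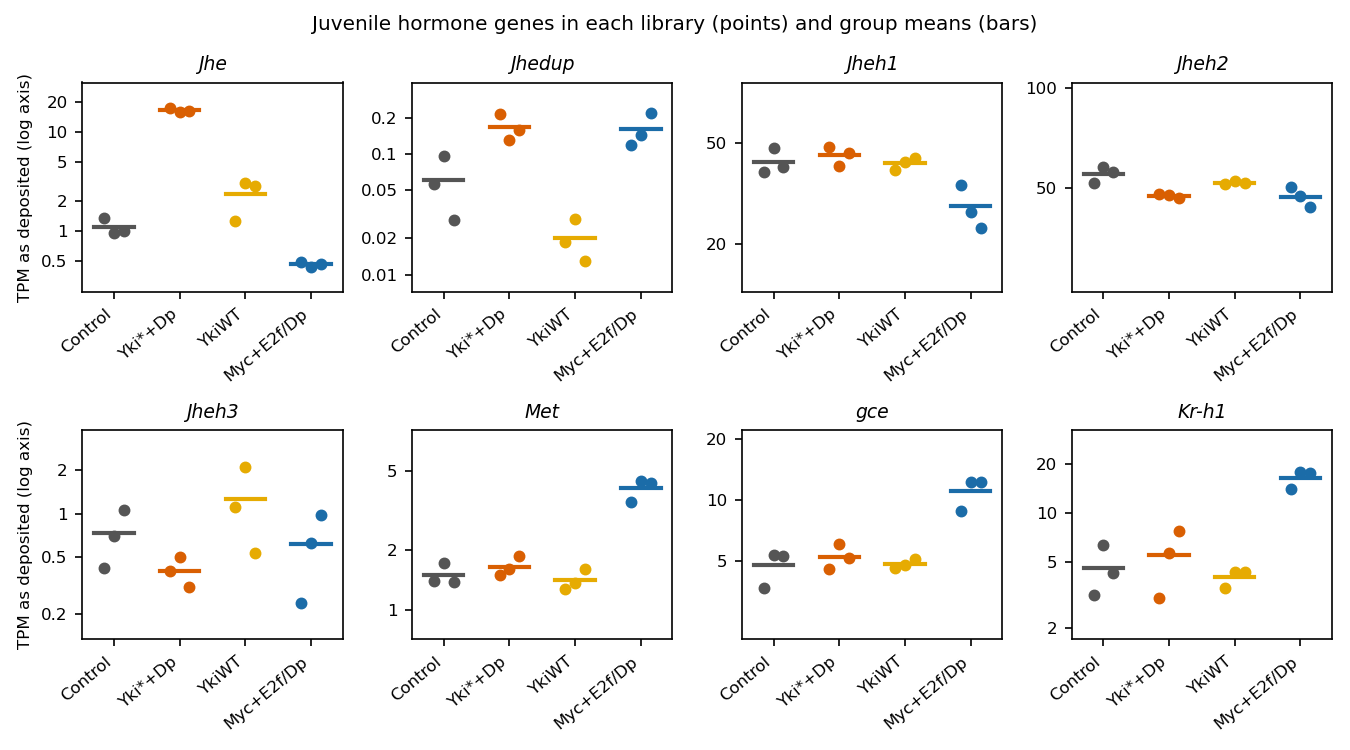
TPM as deposited (log axis) of the 8 juvenile hormone genes in each of the 12 libraries, with points for libraries and bars for the means of the 3 libraries of a genotype. Jhe lies at 15.9 to 17.7 TPM in Yki*+Dp against 0.960 to 1.36 TPM in the Control, and Met, gce and Kr-h1 are highest in the 3 Myc+E2f/Dp libraries.

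Against the Control, Jhe rose in Yki*+Dp by 2.83 ± 0.19 on the log2 scale (SE, n = 3 against 3, limma adjusted p = 2.10e-06), and the mean of its scaled TPM was 11.4-fold higher. This placed it at rank 37 from the top of the 8128 tested genes. The call held under all 15 alternatives, with values between 2.73 and 3.45. In Myc+E2f/Dp, Jhe fell by 0.84 ± 0.19 (adjusted p = 0.00272), where its mean scaled TPM was 4.25-fold lower. It passed the test there but was not called, and a smaller pseudocount called it, at -1.18 with 0.5 and at -1.78 with 0.1. In YkiWT its log2 fold change was 0.64 ± 0.19, with an adjusted p of 0.0571. Without YkiWT replicate 1 that value was 0.92 (adjusted p = 0.00253).

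The direct comparisons of the genotypes with one another gave the order of the Jhe levels. Yki*+Dp was above YkiWT by 2.18 ± 0.19 (limma adjusted p = 3.40e-05, 5.61-fold in mean scaled TPM). Myc+E2f/Dp was below YkiWT, with a log2 fold change of -1.48 (adjusted p = 6.08e-05), and below Yki*+Dp by the largest difference of any member, with a log2 fold change of -3.67 (adjusted p = 6.33e-08). The mean scaled TPM was 48.3-fold higher in Yki*+Dp than in Myc+E2f/Dp. From the lowest to the highest the order was thus Myc+E2f/Dp, Control, YkiWT and Yki*+Dp, and the Control and YkiWT, neighbours in it, did not differ beyond the threshold.

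The level of Jhe did not follow that of yki in every genotype. The yki transcript of the libraries labelled Myc+E2f/Dp overlapped that of YkiWT (log2 fold change of -0.62, limma adjusted p = 0.194), but Jhe was below the Control in the former. Within YkiWT the library with the most yki, replicate 3, had less Jhe than replicate 2, which had the least yki. These are 12 libraries of 4 genotypes, and the relation between the transcripts was not tested.

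**Figure D2:**
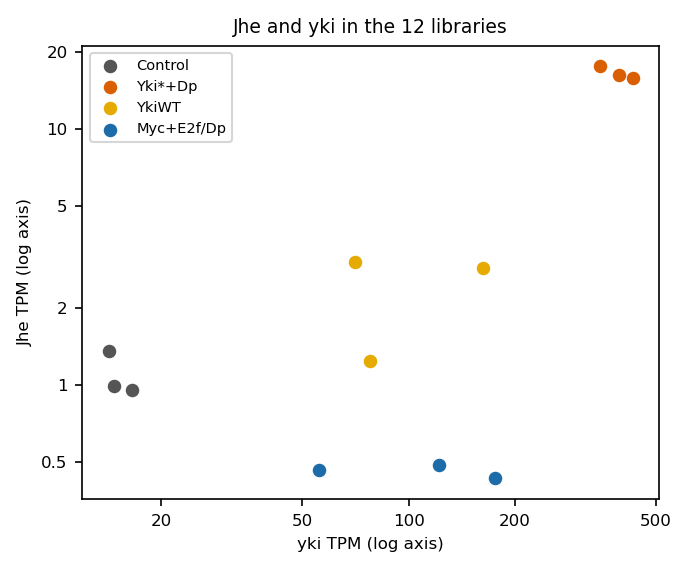
TPM of Jhe against TPM of yki in the 12 libraries (both axes log), coloured by genotype. The Myc+E2f/Dp libraries hold 55.9 to 176 TPM of yki and less Jhe (0.433 to 0.489 TPM) than the Control libraries, which hold 14.2 to 16.5 TPM of yki.

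Jhe has 3 annotated transcripts that share most of their sequence, so the split of reads among them is an estimate of kallisto. All 3 of 3 were called higher in Yki*+Dp, where 7.24% of the 13045 tested transcripts were called in either direction. Jhe-RA, which starts upstream of the others, rose by 1.94, Jhe-RC by 1.95 and Jhe-RB by 2.39 on the log2 scale, each with an SE between 0.137 and 0.159. Jhe-RA held 27.6% ± 0.65 of the gene's TPM in Yki*+Dp and 30.2% ± 3.3 in the Control (SD, n = 3). Jhe-RB and Jhe-RC have the same start and end, 7 exons each, and lengths of 1979 and 1967 nt. Reads that match several transcripts are split by estimate, so these values cannot tell whether 1 transcript or all 3 rose.

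Jhe lies on chromosome arm 2R from 16119793 to 16122773 on the plus strand (build BDGP6.54, as for all positions here), 643 bp downstream of Jhedup, which spans 16117109 to 16119149 on the same strand. Jhedup was close to 0 everywhere: 0.0566, 0.0966 and 0.0283 TPM in the Control, 0.215, 0.130 and 0.159 in Yki*+Dp, 0.0186, 0.0292 and 0.0130 in YkiWT, and 0.119, 0.144 and 0.218 in Myc+E2f/Dp. All 12 values were below 1 TPM and it was not tested in the fit. In scaled TPM its 3 Yki*+Dp values lay above and its 3 YkiWT values below those of the Control, and the exact permutation test of these values gave p = 0.10 for each of these comparisons, which is the smallest p that 3 against 3 libraries allow. For Myc+E2f/Dp the same exact test gave p = 0.30.

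Of the 12 other protein-coding genes that start within 25 kb of the Jhe start, a window chosen after the data were seen, 10 were tested. Of these, 0 were called by limma in Yki*+Dp or Myc+E2f/Dp, where 6.99% and 13.1% of all tested genes were called. By adjusted p, 6 of the 10 passed in Yki*+Dp (39% of all genes) and 4 in Myc+E2f/Dp (64.9%), with 8 and 4 at an unadjusted p under 0.05. The nearest to the call was Rho1, a small GTPase of the cytoskeleton, with a log2 fold change of 0.98 (limma adjusted p = 6.31e-05) in Yki*+Dp. The lysosomal transporter spin, which starts 5.19 kb downstream, had 0.58 (adjusted p = 0.0120). Between Jhe and spin, CG30095 starts 3.69 kb downstream of the Jhe start and was too low to be tested. It reached at most 0.181 TPM in the Control, 0.971 in Yki*+Dp, 0.185 in YkiWT and 0.103 in Myc+E2f/Dp.

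**Figure D3:**
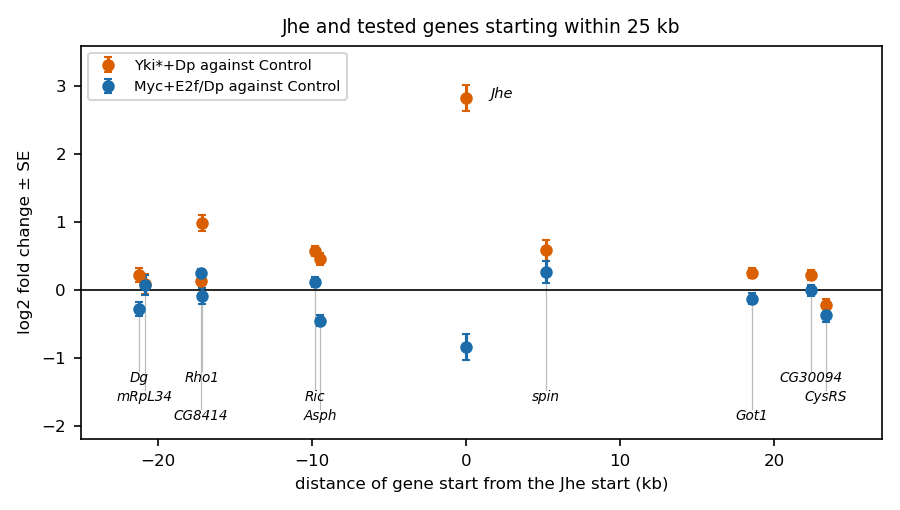
Log2 fold change ± SE against the Control of Jhe and of the 10 tested protein-coding genes that start within 25 kb of it, by the distance of their start in kb along the strand of Jhe, in Yki*+Dp and Myc+E2f/Dp. Jhe stands at 2.83 in Yki*+Dp and no tested neighbour exceeds 0.98.

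The epoxide hydrolases Jheh1 and Jheh2 carried most of the breakdown transcripts in every genotype, and both were lowest in Myc+E2f/Dp. Jheh1 stood at 38.4, 48.1 and 40.1 TPM in the Control, 48.4, 40.7 and 45.6 in Yki*+Dp, 39.3, 42.1 and 43.6 in YkiWT, and 34.3, 26.8 and 23.2 in Myc+E2f/Dp. Jheh2 stood at 51.9, 57.8 and 56.2 TPM in the Control, 48.0, 47.7 and 46.8 in Yki*+Dp, 51.4, 52.7 and 51.9 in YkiWT, and 50.3, 47.4 and 43.8 in Myc+E2f/Dp. For Jheh1 the 3 Myc+E2f/Dp libraries were below all 9 others. For Jheh2 in TPM as deposited, Myc+E2f/Dp and Yki*+Dp overlapped, and both were below the other genotypes. For these gaps too the share of all genes was not computed.

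In Myc+E2f/Dp, Jheh1 fell by 1.37 ± 0.16 on the log2 scale (limma adjusted p = 2.51e-05) and Jheh2 by 1.03 ± 0.10 (adjusted p = 5.17e-06), and both were called. The size of these falls rests on the scaling. In TPM as deposited they were -0.58 (adjusted p = 0.00128) and -0.23 (adjusted p = 0.0135), which passed the test in the same direction and were no longer calls. Without Myc+E2f/Dp replicate 3, Jheh2 stood at -0.90 and was not called. In Yki*+Dp, Jheh2 fell by 0.59 ± 0.10 (adjusted p = 5.98e-04) and was not called, and Jheh1 had a log2 fold change of -0.29 ± 0.16 (adjusted p = 0.183), which changed sign to 0.09 in TPM as deposited. In YkiWT the values were -0.07 for Jheh1 and -0.14 for Jheh2, with adjusted p of 0.829 and 0.412.

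Markers of the secondary cells were also lower in Myc+E2f/Dp, while the direction of the main cell markers as a set depended on the scaling. The 6 markers of the secondary cells, the smaller class of gland cells, summed to 4567 to 5145 TPM in Myc+E2f/Dp against 8269 to 9256 in the Control, 6839 to 8965 in Yki*+Dp and 6125 to 7353 in YkiWT. By limma 4 of these markers were called lower with Myc+E2f/Dp (5.94% of all genes) and all 6 passed lower (29%), with a median log2 fold change of -1.44. In TPM as deposited 0 were called there and 4 passed lower, with a median of -0.77. The secondary cell markers were also lower in the other genotypes. In Yki*+Dp 5 of the 6 passed lower by limma (18.2% of all genes) and in YkiWT 3 (3.26%), with medians of -0.57 and -0.47, and 0 were called. Of the 9 main cell markers 2 were called lower with Myc+E2f/Dp by limma (5.94% of all genes), the sex peptide SP (-1.34, adjusted p = 9.16e-06) and Acp36DE (-1.94, adjusted p = 1.27e-05). In TPM as deposited these 2 were at -0.52 and -1.12. Among all 9, 7 passed lower with Myc+E2f/Dp (29% of all genes), with a median log2 fold change of -0.65. In TPM as deposited 3 passed higher and 2 lower, with a median of 0.17. The main cell sums overlapped, at 66820 to 68870 TPM in Myc+E2f/Dp and 67410 to 71830 in the Control. No defining marker of either cell class was below 1 TPM in all libraries of a genotype, and the part of these cells in the Jheh1 and Jheh2 values was not tested.

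Between genotypes, Jheh1 was lower in Myc+E2f/Dp than in Yki*+Dp by a log2 fold change of -1.09 (limma adjusted p = 1.61e-04) and than in YkiWT by -1.31 (adjusted p = 3.81e-05), and it was called in both. The first of these calls was lost without Myc+E2f/Dp replicate 3, at -0.90. The order for Jheh1 was Myc+E2f/Dp, Yki*+Dp, YkiWT and Control, of which the last 3 did not differ from one another beyond the threshold. The order for Jheh2 was the same, and here too YkiWT and the Control did not differ beyond the threshold, with Yki*+Dp below YkiWT by -0.45 (adjusted p = 0.00537) and Myc+E2f/Dp below Yki*+Dp by -0.43 (adjusted p = 0.00276). Both of these Jheh2 differences shrank in TPM as deposited, to -0.13 (adjusted p = 0.161) and -0.01 (adjusted p = 0.904).

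The ratio of Jheh1 to Jheh2 TPM within a library does not depend on the scaling. It was 0.592 ± 0.080 in Myc+E2f/Dp (SD, n = 3), 0.762 ± 0.062 in the Control, 0.801 ± 0.037 in YkiWT and 0.946 ± 0.081 in Yki*+Dp. The ranges of the Control (0.715 to 0.832), Myc+E2f/Dp (0.529 to 0.682) and Yki*+Dp (0.854 to 1.01) did not overlap, so these neighbouring genes changed unequally. Jheh1, Jheh2 and Jheh3 lie side by side on the minus strand of 2R, at 18853434 to 18855087, 18855767 to 18858245 and 18860375 to 18862078, with 679 bp between the first pair and 2129 bp between the second.

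Jheh3 was low and scattered, and it had no difference from the Control past the test. It stood at 0.419, 0.694 and 1.06 TPM in the Control, 0.395, 0.496 and 0.307 in Yki*+Dp, 1.11, 2.12 and 0.535 in YkiWT, and 0.239, 0.627 and 0.970 in Myc+E2f/Dp. The values within a genotype spread more than the means of most genotypes differed, and the log2 fold changes against the Control were -0.44, 0.35 and -0.41 in the order Yki*+Dp, YkiWT and Myc+E2f/Dp (limma adjusted p = 0.176, 0.410 and 0.151). Jheh3 was lower than in YkiWT in Yki*+Dp (-0.79, adjusted p = 0.0311) and in Myc+E2f/Dp (-0.76, adjusted p = 0.0164). The first of these did not pass when any 1 of the Yki*+Dp libraries was left out (adjusted p of 0.0658 to 0.0805), and the second did not pass without Myc+E2f/Dp replicate 1 (0.0632) or in TPM as deposited (0.103). Both were called without YkiWT replicate 3, at -1.07 (adjusted p = 0.00447) and -1.04 (adjusted p = 0.00156), and with a smaller pseudocount, reaching -1.57 and -1.55 with 0.1. However, Jheh3 was tested only because it reached 1 TPM in Control replicate 3 and in YkiWT replicates 1 and 2. Without any 1 of these libraries it was not tested at all. The comparisons with YkiWT thus rest on the high YkiWT libraries that let Jheh3 into the fit, and nothing is read from them.

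The extremes of Jheh3 coincided with those of markers of the ejaculatory duct. Those 5 markers summed to 1114 TPM in YkiWT replicate 2, the library with the most Jheh3, and to 158 TPM in Myc+E2f/Dp replicate 1, the library with the least, while YkiWT replicate 3 had 699 TPM of them and little Jheh3. Over all 12 libraries they summed to 309 to 725 TPM in the Control, 174 to 583 in Yki*+Dp, 595 to 1114 in YkiWT and 158 to 665 in Myc+E2f/Dp, and of the defining duct and bulb genes Dup99B, a duct peptide, was at 358 to 680 TPM in the means of the genotypes while Ebp, a protein of the ejaculatory bulb, was at 0.0762 to 1.41. Their part in the Jheh3 values was not tested.

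The receptors and their target formed the other side of the pathway and were all highest in Myc+E2f/Dp. Met stood at 1.40, 1.73 and 1.39 TPM in the Control, 1.50, 1.61 and 1.87 in Yki*+Dp, 1.28, 1.38 and 1.62 in YkiWT, and 3.50, 4.48 and 4.35 in Myc+E2f/Dp. Its paralogue gce stood at 3.71, 5.37 and 5.31 TPM in the Control, 4.57, 6.05 and 5.16 in Yki*+Dp, 4.61, 4.82 and 5.12 in YkiWT, and 8.84, 12.3 and 12.3 in Myc+E2f/Dp. In these TPM as deposited, where the median log2 fold change of all genes was 0.74, every Myc+E2f/Dp library was above the 9 others for both receptors. The other genotypes overlapped. In scaled TPM the gap for gce was narrow, with a lowest Myc+E2f/Dp value of 6.86 and a highest Control value of 6.72. For Met these values were 2.72 and 1.96. The share of all genes with such a gap was not computed.

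Against the Control, Met rose in Myc+E2f/Dp by 0.44 ± 0.08 on the log2 scale (limma adjusted p = 5.99e-04) and gce by 0.35 ± 0.11 (adjusted p = 0.0130), below the fold needed for a call. In TPM as deposited, where the median gene was at 0.74, they were at 1.03 (adjusted p = 3.76e-06) and 1.07 (adjusted p = 2.45e-05) and were called. The gce value did not pass without Control replicate 1 (0.25, adjusted p = 0.0618) or without Myc+E2f/Dp replicate 2 (0.28, adjusted p = 0.0534). Both receptors were also higher in Myc+E2f/Dp than in Yki*+Dp, by 0.59 for Met (adjusted p = 8.71e-05) and 0.55 for gce (adjusted p = 0.00103), and than in YkiWT, by 0.52 (adjusted p = 1.97e-04) and 0.37 (adjusted p = 0.0104).

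In Yki*+Dp and YkiWT the receptors did not differ from the Control past the test. For Met the log2 fold changes were -0.15 and -0.08 (limma adjusted p = 0.162 and 0.567), and for gce -0.20 and -0.02 (adjusted p = 0.155 and 0.934). The sign of the Yki*+Dp values depended on the scaling: in TPM as deposited they were 0.09 for Met and 0.12 for gce, and with scaling at the 75th percentile -0.21 (adjusted p = 0.0447) and -0.28 (adjusted p = 0.0353). TPM is per length, and on that scale gce was above Met in every genotype, by 3.20 ± 0.59 times in the Control and by 2.70 ± 0.15 times in Myc+E2f/Dp (SD, n = 3).

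Kr-h1, the target of the receptors, had its highest level in Myc+E2f/Dp as well. It stood at 3.15, 6.36 and 4.32 TPM in the Control, 3.04, 5.69 and 7.82 in Yki*+Dp, 3.49, 4.36 and 4.34 in YkiWT, and 14.1, 17.8 and 17.5 in Myc+E2f/Dp. The 3 Myc+E2f/Dp libraries lay above all 9 others, and the other genotypes overlapped, with Yki*+Dp spread most widely. In scaled TPM the lowest Myc+E2f/Dp value was 10.9, and the highest value of the others was 7.46, in Yki*+Dp. Here too the share of all genes with such a gap was not computed.

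Against the Control, Kr-h1 rose in Myc+E2f/Dp by 0.94 ± 0.23 on the log2 scale (limma adjusted p = 0.00387, 2.06-fold in mean scaled TPM). This passed the test and lay just under the fold for a call. It was called in TPM as deposited (1.67, adjusted p = 5.51e-05), with a pseudocount of 0.5 (1.003) or 0.1 (1.06), and without Control replicate 2 (1.11). Kr-h1 was called higher in Myc+E2f/Dp than in YkiWT (1.10, adjusted p = 0.00157) and than in Yki*+Dp (1.08, adjusted p = 0.00211), and the second of these calls was lost without Yki*+Dp replicate 1 (0.78). In Yki*+Dp and YkiWT its log2 fold changes against the Control were -0.13 and -0.16 (adjusted p = 0.690 and 0.713). For Met, gce and Kr-h1 alike, the Control, YkiWT and Yki*+Dp were neighbours that did not differ beyond the threshold.

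**Figure D4:**
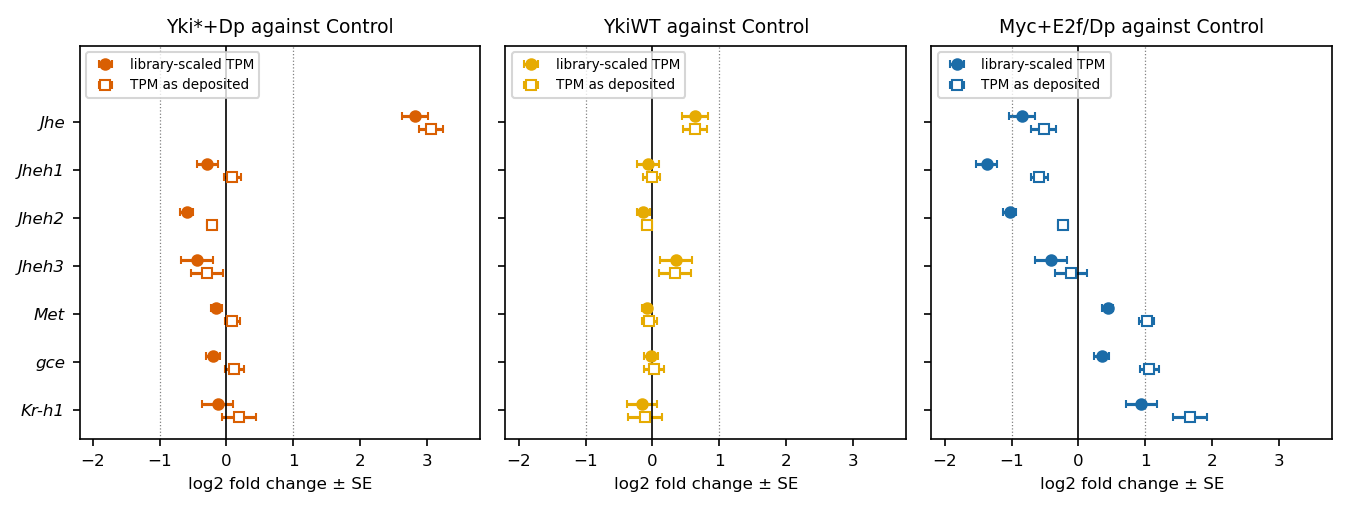
Log2 fold change ± SE against the Control of the 7 tested members in Yki*+Dp, YkiWT and Myc+E2f/Dp, from library-scaled TPM (filled) and from TPM as deposited (open), with dotted lines at -1 and 1. In Myc+E2f/Dp the scaling moves every member, from 0.94 to 1.67 for Kr-h1 and from -1.37 to -0.58 for Jheh1, without a change of sign, and the Jhe value in Yki*+Dp is 2.83 or 3.07.

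As counts, 2 of the 7 tested members were called in Myc+E2f/Dp against the Control, both lower (Jheh1 and Jheh2), where 13.1% of all tested genes were called and 5.94% were called lower. A further 4 passed the test, Jhe lower and Met, gce and Kr-h1 higher, so that 6 of 7 passed, where 64.9% of all genes did. In TPM as deposited 3 of 7 were called, all higher (Met, gce and Kr-h1), where 28.8% of all genes were called higher. The called members thus changed with the scaling, while each of the 6 kept its direction. The median log2 fold change of the 7 was -0.41, and that of all genes 0.05.

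In Yki*+Dp, 1 of 7 was called (Jhe, higher), where 6.99% of all genes were called and 5.52% were called higher, and 2 of 7 passed, where 39% of all genes did. The median of the members was -0.20. In YkiWT 0 of 7 were called and 0 passed, against 2.13% and 10.6% of all genes, with 1 member (Jhe) at an unadjusted p under 0.05 (0.00652). Between genotypes, 3 of 7 were called in Myc+E2f/Dp against Yki*+Dp (10.5% of all genes) and 6 of 7 passed (56.7%), 1 was called in Yki*+Dp against YkiWT (4.02%) and 3 passed (27.7%), and 3 were called in Myc+E2f/Dp against YkiWT (12.2%) and all 7 passed (64.7%). The comparisons share the same Control libraries or genotypes, so their counts are not independent, and with so few members nothing is read from the gap between a count and its background share.

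Shares and ratios of TPM within a library, which do not depend on the scaling, set the transcripts of the breakdown and response genes beside one another. They are values of RNA, and enzyme activity and hormone level cannot be read from them. Jhe made up 1.13% ± 0.31 of the TPM of the 5 breakdown genes in the Control (SD, n = 3), 15.1% ± 0.25 in Yki*+Dp, 2.42% ± 0.94 in YkiWT and 0.609% ± 0.061 in Myc+E2f/Dp. The sum of the 5 was between 92.2 and 108 TPM in the Control and between 104.9 and 114.6 TPM in Yki*+Dp, and the epoxide hydrolases stayed the larger part. The sums, unlike the shares, depend on the scaling: in scaled TPM that of Yki*+Dp, 97.3 to 113, was below that of the Control, 122 to 125. In Myc+E2f/Dp the breakdown sum was lowest on both scales, at 68.7 to 85.4 TPM as deposited and 44.3 to 66.3 when scaled.

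Jheh1 and Jheh2 together stood at 14.4 to 17.7 times the TPM of the 2 receptors in the Control, at 11.5 to 15.9 times in Yki*+Dp, at 14.2 to 15.4 times in YkiWT and at 4.03 to 6.85 times in Myc+E2f/Dp. The 3 Myc+E2f/Dp libraries were apart from the 9 others in this ratio, which restates the values of these 4 genes given above. Kr-h1 stood at 0.617 to 0.896 times the TPM of the receptors in the Control and at 1.05 to 1.14 times in Myc+E2f/Dp, but Yki*+Dp spanned 0.501 to 1.11 and overlapped both.

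The transcript table added 1 pattern for the receptors. The gene gce lies on the X chromosome at 15297766 to 15319074 (plus strand). Its transcripts gce-RE and gce-RG have different annotated starts, and their shares of the gene shifted in opposite directions in Myc+E2f/Dp. However, gce-RC has the same annotated start as gce-RG (15299009), and its share did not rise, at 49.6% in the Control and 46.6% in Myc+E2f/Dp. The share of gce-RG was 18.4% ± 2.7 of the gene's TPM in the Control, 20.9% ± 0.96 in Yki*+Dp, 25.7% ± 0.77 in YkiWT and 33.2% ± 4.3 in Myc+E2f/Dp (SD, n = 3). That of gce-RE was 30.2% ± 3.3, 28.6% ± 1.9, 29.3% ± 3.8 and 16.8% ± 1.7 in the same order. The Myc+E2f/Dp ranges, 28.6% to 37.2% for gce-RG and 15.1% to 18.5% for gce-RE, did not overlap those of any other genotype. How common such gaps are among all transcripts was not computed.

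In the fit of all transcripts, gce-RG rose in Myc+E2f/Dp by 0.82 ± 0.11 on the log2 scale (limma adjusted p = 1.24e-04), and gce-RE had a log2 fold change of -0.24 ± 0.09 (adjusted p = 0.0448). The direction of gce-RE turned with the scaling: in TPM as deposited it was 0.22 (adjusted p = 0.109), and that of gce-RG was 1.32 (adjusted p = 9.47e-06). The shares do not depend on the scaling. The transcript with the largest share, gce-RC, held 44.0% to 49.6% in the means of the genotypes and had a log2 fold change of 0.28 (adjusted p = 0.10). These transcripts overlap, and the shares are estimates of kallisto.

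**Figure D5:**
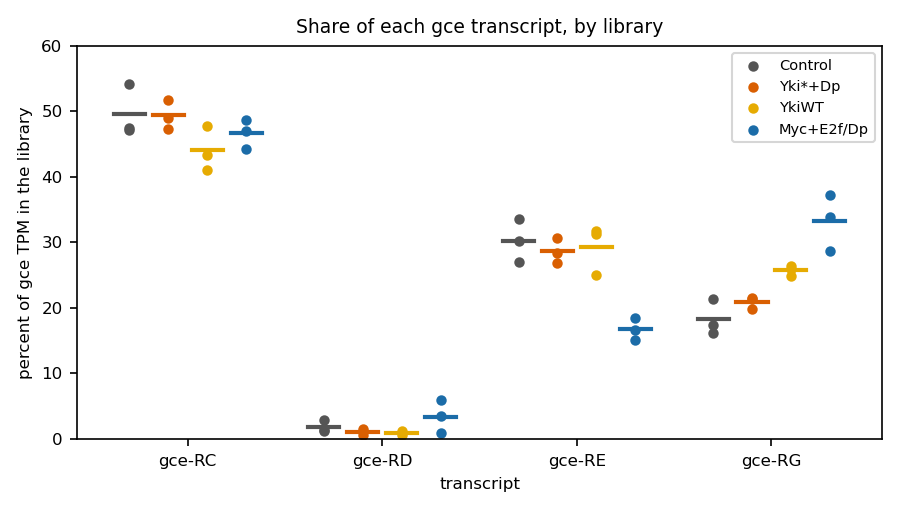
Share of the gce TPM of a library held by each of the 4 gce transcripts, in percent, with points for the 12 libraries and bars for genotype means. gce-RG rises from 18.4% in the Control to 33.2% in Myc+E2f/Dp, and gce-RE goes from 30.2% to 16.8%.

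For Jhe the shares in Myc+E2f/Dp were scattered and overlapped those of the Control. Jhe-RC held 34.7% to 84.5% of the gene's TPM there and 26.5% to 44.7% in the Control, and Jhe-RB held 0% to 30.4% and 24.5% to 47.0%, at a total below 0.5 TPM of Jhe in Myc+E2f/Dp. Met lies on the X chromosome at 11616124 to 11621280 (plus strand), and its transcripts Met-RA and Met-RB held near equal shares, with Met-RA at 53.2% ± 6.6 in the Control and 50.0% ± 1.5 in Myc+E2f/Dp. Kr-h1 lies on 2L at 6082603 to 6096498 (plus strand), and Kr-h1-RA held 97.2% to 98.3% of its TPM in the means of all genotypes. In Myc+E2f/Dp, Kr-h1-RA was called, at 1.005 ± 0.23 (limma adjusted p = 0.00335). Nearly all of Jheh2 was Jheh2-RA, and Jheh1, Jheh3 and Jhedup have 1 transcript each.

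The genes most like each member over the 12 libraries were taken by Pearson's r of log2 values, as a description. For Jhe these were CG10311 (r = 0.99), CG5254 (0.98) and CG9471 (0.98), for Jheh1 they were Mpc1 (0.99), a subunit of the mitochondrial pyruvate carrier, BG642312 (0.99) and CG7742 (0.99), and for Jheh2 they were CG43354, ReepB and ssp7 (0.99 each). For Met they were SMC1, a cohesin subunit, CG5787 and CG9915 (0.98 each), for gce Chsy, jigr1 and retn (0.96, 0.95 and 0.95), and for Kr-h1 ACC, the acetyl-CoA carboxylase of fatty acid synthesis (0.97), Moca-cyp (0.96) and CG10333 (0.96). Jheh3 had the weakest likeness, to CG43114 (0.91), galla-1 (0.91) and CG17242 (0.89). The points share genotypes, so any genes that differ in 1 genotype are alike by this measure.

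Among the members themselves, Jheh1 and Jheh2 had r = 0.92, Met and Kr-h1 0.90, Met and gce 0.84, and Jheh1 and Met -0.83 over the same 12 libraries. Jhe was weakly related to Jheh1 (0.46), Jheh2 (0.11) and Jheh3 (-0.16), and it had r = -0.79 with gce, -0.74 with Met and -0.60 with Kr-h1. These values again describe 4 genotypes with 3 libraries each.

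Among the other genes of the pathway, more passed the test than were called, and the calls depended on the scaling. Of the 9 genes of juvenile hormone synthesis and the mevalonate pathway found, 8 were tested and 0 were called by limma against the Control in any genotype, with 4, 4 and 2 at an unadjusted p under 0.05 in Yki*+Dp, Myc+E2f/Dp and YkiWT. By adjusted p, 3 passed higher and 1, Fpps, lower in Myc+E2f/Dp (-0.30, but 0.44 in TPM as deposited), and 2 passed higher in Yki*+Dp, where 35.8% and 20.7% of all genes passed higher in these genotypes. Without scaling 2 of the 8 were called higher in Myc+E2f/Dp (28.8% of all genes) and 0 in Yki*+Dp (8.88%). The methyltransferase jhamt, which acts in the final steps of hormone synthesis in the corpora allata, was at 0.344 to 2.80 TPM in the Control and at 1.79 to 10.2 TPM in YkiWT, with an adjusted p of 0.176 by limma. The median log2 fold change of the 8 was 0.21 for Yki*+Dp (all genes -0.00) and -0.00 for Myc+E2f/Dp (all genes 0.05).

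Of the 6 partners of the receptors tested, 0 were called, with 4, 4 and 0 at an unadjusted p under 0.05 in that order of genotypes. By adjusted p, 3 passed higher in Myc+E2f/Dp (35.8% of all genes) and 1, Chd64, lower (-0.40, but 0.41 in TPM as deposited), and 2 passed higher in Yki*+Dp (20.7%). The last 2, named after their values were seen, were Hsp83, the Hsp90 chaperone of the receptors (0.77, limma adjusted p = 0.0147), and Chd64, a calponin-like protein (0.81, adjusted p = 3.58e-05). The coactivator tai rose in Myc+E2f/Dp by 0.35 (adjusted p = 0.00741). Without scaling 4 of the 6 partners were called higher in Myc+E2f/Dp, tai (1.07), Hsp83 (1.24), Nup358 (1.20) and Fkbp39 (1.30). In Yki*+Dp 2 were, Hsp83 (1.16) and Chd64 (1.19). Of all genes, 28.8% and 8.88% were called higher without scaling in these genotypes. Among the 4 genes induced by juvenile hormone in other settings, 3 were tested and 0 called (2 at an unadjusted p under 0.05 in each genotype). In Myc+E2f/Dp 2 passed higher by limma (35.8% of all genes): mnd, an amino acid transporter (0.76, adjusted p = 4.33e-06), and JhI-26 (0.49, adjusted p = 0.0160). Both were called in TPM as deposited, at 1.43 and 1.28, where 28.8% of all genes were called higher. JhI-26 passed also in YkiWT (0.69, adjusted p = 0.0177), and JhI-21 passed lower in Yki*+Dp (-0.44, adjusted p = 0.00391), which was -0.07 in TPM as deposited. Of the takeout group only CG3776 could be tested, and it did not pass in any genotype (adjusted p = 0.0589 in Myc+E2f/Dp).

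Genes of ecdysone, the other lipophilic hormone of the fly, were set beside these. Of the 9 genes of its receptor and response, 6 were tested, and 1 was called in Myc+E2f/Dp, the ETS factor Eip74EF, which rose by 1.30 ± 0.13 on the log2 scale (limma adjusted p = 9.31e-06) from a mean of 2.71 to 14.1 TPM. In all, 4 of the 6 passed higher with Myc+E2f/Dp (35.8% of all genes), 2 of them also in Yki*+Dp (20.7%). As deposited, the TPM gave 4 calls among them, all higher, in Myc+E2f/Dp (28.8% of all genes), Eip74EF, Eip75B (1.28), ftz-f1 (1.22) and Hr39 (1.07).

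Of 15 other carboxylesterases, relatives of Jhe, 7 were tested. In Yki*+Dp 1 was called, Est-6, which fell by 2.16 (limma adjusted p = 0.0165), where 1.46% of all genes were called lower. There α-Est3 passed higher at 0.65 (adjusted p = 4.04e-05) and α-Est8 lower at -0.57 (adjusted p = 5.01e-04). In Myc+E2f/Dp 3 were called, all lower, where 5.94% of all genes were, namely Est-6 (-2.52, adjusted p = 0.00399), α-Est8 (-1.26, adjusted p = 7.44e-07) and α-Est3 (-1.05, adjusted p = 4.76e-07). In YkiWT 1 was called, α-Est7 (-1.39, adjusted p = 5.55e-05), where 0.246% of all genes were called lower. Only α-Est3 of those called thus had the direction of Jhe in each of these genotypes, Yki*+Dp and Myc+E2f/Dp. In TPM as deposited, α-Est3 was at -0.45 and α-Est8 at -0.54 in Myc+E2f/Dp, which were no longer calls, and α-Est10 was called higher (1.46). Est-6 is an esterase of the ejaculatory duct, whose other markers also varied by library.

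Because juvenile hormone esterase is known from the fat body of insects, the markers of that tissue were set beside Jhe. Their 12 members summed to 4.82 to 7.87 TPM in the Control, 14.7 to 20.1 in Yki*+Dp, 7.62 to 10.7 in YkiWT and 17.9 to 30.3 in Myc+E2f/Dp. The sums of Yki*+Dp and Myc+E2f/Dp overlapped, and in scaled TPM they were 14.6 to 18.6 and 13.9 to 19.6 against 6.55 to 9.43 in the Control. The defining secreted genes apolpp, Apoltp, Fbp1, Lsp2 and Yp1 to Yp3 had means under 1.15 TPM in every genotype. Lsd-1, a lipid droplet protein, was called higher in Yki*+Dp (1.76, limma adjusted p = 1.32e-06), and FASN1, a fatty acid synthase, in Myc+E2f/Dp (1.48, adjusted p = 1.58e-04). The sum thus mixed genes that moved differently. Lsd-1 had means of 1.09 TPM in the Control, 7.37 in Yki*+Dp, 1.84 in YkiWT and 1.14 in Myc+E2f/Dp. Those of FASN1 were 2.05, 4.785, 2.13 and 12.25 TPM in the same order. Muscle markers summed to 719 to 854 TPM in Yki*+Dp and 401 to 512 in the Control, and in Yki*+Dp 3 of 11 tested passed higher. With Myc+E2f/Dp 8 of these muscle markers were called lower, where 5.94% of all genes were, but in TPM as deposited 0 were called, their log2 fold changes were -0.55 to 0.28, and the sums of 334 to 505 TPM overlapped the Control. Hemocyte markers summed to 19.2 to 28.2 TPM in the Control, 42.9 to 53.2 in Yki*+Dp, 34.4 to 37.8 in YkiWT and 29.2 to 48.1 in Myc+E2f/Dp. Of the 8 tested, 3 passed higher in Yki*+Dp, among them the scavenger receptor crq, which was called (1.21, limma adjusted p = 4.83e-05), and 3 passed higher in YkiWT. The hemocyte sum of Myc+E2f/Dp depended on the scaling, and in scaled TPM it overlapped the Control. The part of the fat body, muscle and hemocyte markers in the Jhe values was not tested.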

How the data were processed

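Read trimming with cutadapt 1.18 and quantification with kallisto on BDGP6 transcripts were done by the authors, who tested with sleuth; the deposited tables hold TPM per transcript and, as their sum, per gene. TPM keep no depth, and a few abundant genes shift all others. Libraries were scaled by median-of-ratios factors from the 6633 genes that reached 1 TPM in each of the 12. A minimum of 1 TPM in at least 3 libraries left 8128 of 14323 genes and 13045 of 31089 transcripts. They were tested with limma 3.58.1 (R 4.3.3) on log2(scaled TPM + 1), with an intensity trend, no replicate term, 1 fit over all libraries and Benjamini-Hochberg adjustment within each of 6 comparisons. Jhedup, below the filter, had a two-sided exact permutation test. The fit was tested on simulated data before use. Positions came from the Ensembl annotation of BDGP6.54, matched by symbol and transcript identifier.

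The 8 members, 6 pathway lists and 8 marker lists were chosen with earlier results of these data known. Named were all members, the 3 genes most like each, and up to 4 called genes of a pathway list; other names, and the spelling of the α-Est genes, were chosen after values were seen. Alternatives were TPM as deposited, scaling at the 75th percentile, pseudocounts of 0.1 and 0.5, no filter, a filter at 5 TPM, only the groups compared, a replicate block, no intensity trend, and leaving out each library.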

Additional observations from a re-analysis of the deposited data

Results flagged for a closer look

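Jhe stood out because its differences from the Control had opposite signs in 2 genotypes and both passed the test. Set directly against Yki*+Dp with limma, Myc+E2f/Dp had a log2 fold change of -3.67 (adjusted p = 6.33e-08), and it ranged from -5.22 to -3.59 over 15 alternatives. All 3 libraries of Myc+E2f/Dp were below all 3 of Yki*+Dp, and the share of all genes with such a gap was not computed.

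The yki transcript stood out because it had a mean of 117.7 TPM in the libraries labelled Myc+E2f/Dp, above the Control, although no yki transgene is in their label. The study itself reported raised yki in Myc+E2f/Dp glands, and it proposed that Yki could take part in epithelial remodeling there. In Myc+E2f/Dp the transcript FBtr0309372 held the largest part of the yki TPM in replicates 1 and 2 but not in replicate 3. In replicate 3 FBtr0452181 and FBtr0290258 were slightly higher at 18.1 TPM each. FBtr0309372 stood at 83.6, 132 and 17.3 TPM in Myc+E2f/Dp, 2.59, 2.25 and 2.92 TPM in the Control, 318, 397 and 361 TPM in Yki*+Dp and 55.2, 51.6 and 139 TPM in YkiWT. Its source was not tested. Groups of 3 libraries are too small for a test of a library that stands apart from its group.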

How the results depend on the processing

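Over the 6 comparisons, the counts of called members were unchanged or within 1.5 times in all but the following. With a pseudocount of 0.1 or of 0.5, 4 members were called in Myc+E2f/Dp against Control and 2 in Yki*+Dp against YkiWT. With 1 library left out, the members called ranged from 1 to 3 in Myc+E2f/Dp against Control, from 1 to 2 in Yki*+Dp against YkiWT, from 2 to 3 in Myc+E2f/Dp against Yki*+Dp and from 3 to 4 in Myc+E2f/Dp against YkiWT. In TPM as deposited 2448 genes were called in Myc+E2f/Dp against Control (1064 when scaled) and 2067 in Myc+E2f/Dp against YkiWT (990 when scaled), and with a pseudocount of 0.1, 318 were called in YkiWT against Control (173 otherwise). Each alternative was compared with the main fit only. No member value that passed the test in either of these settings changed its sign, and 20 values that passed in neither did. Between alternatives signs could differ. In Yki*+Dp against Control, Met and gce passed at -0.21 and -0.28 with scaling at the 75th percentile. In TPM as deposited they were at 0.09 and 0.12 and did not pass. The main fit did not pair libraries by replicate number. Deviations of same-numbered libraries had r between -0.313 and 0.515, over 0.1 in 9 of 18 pairs. For gce and Kr-h1 in TPM as deposited, replicate 1 was the lowest library of every genotype. In scaled TPM this held for Kr-h1, but gce in YkiWT was lower in replicate 2 (5.58) than in replicate 1 (5.79). A replicate block lowered the SE of both genes in Myc+E2f/Dp against Control, from 0.105 to 0.0819 for gce and from 0.229 to 0.177 for Kr-h1. Whether same-numbered libraries share an effect was not tested. With a replicate block 1073 genes (1064 without) and the same number of members, 2, were called in Myc+E2f/Dp against Control, and the block changed no call of a member. The depth of the libraries is unknown, which limits what can be said of Jhedup and Jheh3, and log2 fold changes of low genes depend on the pseudocount.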
